A study of Mus musculus with 36 samples.

Results

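Open chromatin of the infarct border zone was compared between day 7 and day 14 after surgery, in cardiomyocyte nuclei of the mouse left ventricle. The regions that the deposited ATAC-seq lists gave for the 2 days were joined wherever they overlapped by at least 1 bp, and the border zone tags of each joined locus were summed per day. Of 44226 such loci, 26554 (60.0%) were listed on both days, and these are the loci described here. The lists of days 4, 7 and 14 together form 60847 loci. The border zone groups were FVB/N mice carrying Myh6-MerCreMer and nTnG that had a myocardial infarction 7 or 14 days before, and the sham groups were mice of the same strain and alleles that had a sham operation 7 or 14 days before. All 4 groups had received tamoxifen at 20 mg/kg a week before surgery, given into the peritoneum and repeated on the following days, and each sample was 50000 nuclei taken by flow cytometry, with nuclei not of cardiomyocyte origin gated out. Each group was 1 library, and the labels do not say how many animals it held or how old they were. The comparison therefore describes 2 border zone libraries, with the 2 sham libraries as a check of what differed between the days without an infarct, and no p-value is given. Intervals are exact 95% binomial intervals of tag or locus counts. They cover counting error only, since the tags carry no molecular identifiers and may be copies of one another.

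The border zone is the surviving muscle that adjoins the scar of an infarct. Its cardiomyocytes are known to lower genes of contraction, calcium cycling and oxidative metabolism and to raise stress genes in the first days, and the ventricle goes on remodelling for weeks while the scar matures. ATAC-seq uses a transposase that cuts where DNA is not covered by nucleosomes, so that active promoters and enhancers collect many tags. Myh6-MerCreMer is a tamoxifen-dependent Cre recombinase driven by the promoter of the cardiomyocyte gene Myh6, and nTnG is a reporter that changes the colour of the nucleus after recombination, so sorted nuclei come from cells that had used this promoter when tamoxifen was given. A lower tag count can mean fewer nuclei with an open site or a less open site in each nucleus, and these cannot be told apart. Loci are given by their mm9 coordinates. Genes were not assigned to them, because no mm9 annotation was used here, and the cardiomyocyte label was for the same reason not checked against marker genes.

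In the loci listed on both days the border zone libraries held 2454852 (day 7) and 8614919 (day 14) unscaled tags, and the sham libraries held 3546249 and 11742576. The median locus had 74.1 border zone tags as listed for day 7 and 305.8 for day 14, against 79 and 305 in sham. The listed border zone values are tags that the authors scaled up towards sham. In most regions, 94.7% on day 7 and 93.1% on day 14, the factor was nearly the same on both days, at 1.35 and 1.37. The median locus had 3.99 times as many listed border zone tags on day 14 as on day 7, and 3.52 times as many sham tags. All ratios below are log2 ratios of day 14 to day 7 from which the library's own median over these loci was subtracted. A value of 0 is thus the typical locus, and a positive value means relatively more tags on day 14. A change that touched most loci alike would be removed by this step.

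Against that centre, 1811 border zone loci were at least 2-fold higher on day 14 (6.82% of the 26554) and 2029 on day 7 (7.64%). Differences of at least 4-fold were found in 97 loci for day 14 (0.365%) and in 182 for day 7 (0.685%). Within 1.5-fold lay 62.3% of border zone loci and 75.3% of sham loci. Sham loci spread less. At least 2-fold differences were found in 972 sham loci for day 14 (3.66%) and in 1356 for day 7 (5.11%), and at least 4-fold differences in 23 (0.0866%) and 140 (0.527%). The standard deviation of the ratio over loci was 0.71 in the border zone, where the counting of tags alone gives 0.23, and 0.58 in sham, where it gives 0.19. The middle 90% of loci lay between -1.20 and 1.13 in the border zone and between -1.01 and 0.89 in sham. The balance of the directions depends on the centre. With the ratio of summed tags as the centre, 2756 loci were 2-fold higher on day 14 and 1430 on day 7, which turns the share of day 14 among these loci from 47.2% to 65.8%. Beside the limit, a locus at 61494751 to 61499250 of chromosome 18 was just inside for day 14 and one at 113200251 to 113201250 of chromosome 5 just outside. For day 7 the neighbours of the limit were 94771751 to 94773250 of chromosome 4 and 89714751 to 89715750 of chromosome 3.

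The length of DNA that the lists covered moved with these ratios. The lists were made separately on each day, and 78.0% of loci had the same covered length on both days. Among loci 2-fold higher on day 14, 58.0% were covered over a longer stretch on day 14, against 10.8% of all loci. Among those 2-fold higher on day 7, 64.7% were covered over a shorter stretch on day 14, against 11.1% of all loci. Divided by the covered length, tags per kb were at least 2-fold higher on day 14 in 1077 loci (4.06%) and on day 7 in 1172 (4.41%). In sham the numbers per kb were 250 (0.941%) and 616 (2.32%). The 20717 loci with equal covered length, centred on their own median, gave 764 border zone loci for day 14 (3.69%) and 693 for day 7 (3.35%), and in sham 154 (0.743%) and 364 (1.76%). By all 3 of these counts the border zone had the larger share past 2-fold in each direction, and it also had the fewer tags.

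Most loci that differed between the days in the border zone leaned the same way in sham. Of the 1811 border zone loci higher on day 14, 1679 (92.7%) had a sham ratio above 0. At least 2-fold higher in sham too were 533 (29.4%), against 3.66% of all loci. Of the 2029 higher on day 7, 1928 had a sham ratio below 0, and 976 (48.1%) were at least 2-fold in sham too, against 5.11% of all loci. The median sham ratio was 0.72 in the first set and -0.97 in the other. Over all loci, Spearman's rho between the border zone and sham ratios was 0.64 and Pearson's r was 0.71. Per covered kb these were 0.50 and 0.55. The points share the day, and with it covered length, sorting and sequencing, and loci are not replicates. With 1 library per group, a day difference of the border zone cannot be told apart from a difference between its 2 libraries, also where sham was steady.

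**Figure D1:**
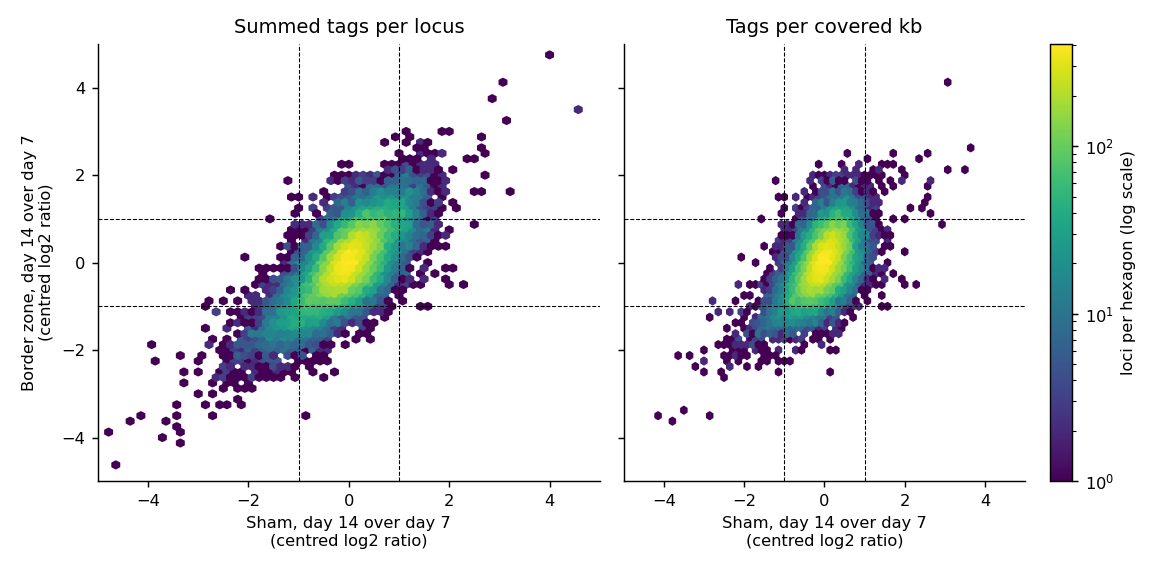
Centred log2 ratio of day 14 to day 7 in the border zone (vertical) against sham (horizontal) for 26554 loci, from summed tags (left) and from tags per covered kb (right). Colour gives the number of loci per hexagon on a log scale, and dashed lines mark 2-fold. The cloud lies along the diagonal, with a rho of 0.64 on the left and 0.50 on the right, and is taller than it is wide, with standard deviations on the left of 0.71 and 0.58.

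The ratio of the border zone to sham was at least 2-fold higher on day 14 in 755 loci (2.84%) and on day 7 in 671 (2.53%). In 710 loci the border zone tags were at least 2-fold higher on day 14 while sham stayed within 1.5-fold (2.67% of all loci). Their median border zone ratio was 1.19 with a sham ratio of 0.31, and per covered kb 1.14 and 0.18. Covered length was equal on both days in 79.0% of them, longer on day 14 in 20.6% and shorter in 0.42%. Over all loci these shares were 78.0%, 10.8% and 11.1%. The 710 loci had few border zone tags on day 7. Their median was 29.6 border zone against 70 sham tags on day 7, and 291 against 313 on day 14. The border zone level was 0.382 of sham on day 7 and 0.854 of sham on day 14, where the median over all loci was 0.873 and 0.998. The authors' lists gave 606 of the 710 as sham-higher on day 7, and 555 of these as non-differential on day 14. Over all 26554 loci these numbers were 5258 and 4067. In these counts and the list medians below, a locus belongs to a list only if all its regions of that day came from it. Loci of mixed lists are left out, for example 1460 with sham-higher and non-differential regions on day 7 and non-differential ones on day 14. Part of the pattern of the 710 loci follows from how loci enter the lists. A region was listed on day 7 only where the larger of its 2 values reached 50 tags, so a locus with few border zone tags on that day had to have more sham tags.

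Among those with at least 100 border zone tags on day 14, the largest difference in listed tags was at 127456251 to 127457250 of chromosome 8. In the border zone it had 10.5 tags on day 7 but 200.2 on day 14, against 51 and 155 in sham. Its border zone ratio was 2.26 (1.29 to 3.42) and its sham ratio was -0.21. The border zone was far below sham on day 7 and above it on day 14. At 137755251 to 137756750 of chromosome 1 the border zone went from 22.9 to 428 tags and sham from 54 to 198, with ratios of 2.23 (1.53 to 3.03) and 0.06. On chromosome 8 the listed day 7 value carried a smaller factor, 1.17, and the day 14 value carried 1.37. In unscaled tags the order of these 2 loci turned, with 2.05 on chromosome 8 and 2.22 on chromosome 1. The covered length there was 1.0 kb on day 7 and 1.5 kb on day 14, and per kb the border zone ratio was 1.65. It is the only one of the 6 named here that the lists gave as border zone-higher on day 14, and the other 5 were non-differential on that day.

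A locus at 32463251 to 32464250 of chromosome 16 held 11.7 and then 195 tags in the border zone, with 58 and 278 in sham. Its ratios were 2.07 (1.14 to 3.16) in the border zone and 0.45 in sham. The locus on chromosome 19, from 46605251 to 46607250, had in the border zone 24.2 and 398 tags and sham had 76 and 387. Its ratios were 2.04 (1.35 to 2.82) in the border zone and 0.53 in sham. Per covered kb they were 1.05 and -0.46, because the covered length was 1.0 and 2.0 kb. Both loci reached about the level of sham or less on day 14. At 63904251 to 63905250 of chromosome 11 the border zone held 20.2 and 329 tags against 85 and 445 in sham. The ratios there were 2.03 (1.28 to 2.89) and 0.57. The sixth, at 102580251 to 102581250 of chromosome 13, rests on 8.17 (day 7) and 133 (day 14) listed tags of the border zone, with 50 and 163 in sham. Its ratio of 2.03 has the widest interval (0.93 to 3.38), and its sham ratio was -0.11. The sham ratios on chromosomes 19 and 11 lay just under the 1.5-fold limit, which is 0.58 on this scale. In unscaled tags the border zone ratios were 1.85 on chromosome 16 and 1.82 on chromosome 13, where the day 7 values carried the smaller factor. In all 6 the sham count on day 7 was between 50 and 85, where the minimum for being listed was 50 and the median locus had 79. The border zone count was below that minimum in each.

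The opposite pattern, border zone tags at least 2-fold higher on day 7 with sham within 1.5-fold, was found in 478 loci (1.80% of all loci). Their median ratio was -1.14 in the border zone and -0.30 in sham, and per covered kb -1.05 and -0.06. Covered length was equal on both days in 68.0% of them, shorter on day 14 in 31.4% and longer in 0.63%. The median was 124 border zone against 65 sham tags on day 7, and 192 against 196 on day 14. The border zone thus stood at 1.73 times sham on day 7 and at 1.03 times sham on day 14. Of the 478, the lists gave 215 as border zone-higher on day 7, and 146 of these as non-differential on day 14 and 53 as border zone-higher again. Over all 26554 loci these numbers were 3063, 1151 and 1707. Both sets of loci were chosen by the border zone values of both days, so their position against sham is a description of the choice as well as of the loci.

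The 6 named loci of this direction were all 1.5 kb long on day 7 and 1.0 kb on day 14. At 14193251 to 14194750 of chromosome 14 the border zone had 257 and then 170.03 tags, while sham had 63 and 159. The border zone ratio was -2.59 (-2.93 to -2.26), or -2.00 per covered kb, and the sham ratio was -0.48, or 0.11 per kb. On chromosome 12, the locus from 75925251 to 75926750 went in the border zone from 183 to 123 tags and sham from 55 to 159. Its border zone ratio was -2.56 (-2.96 to -2.17), or -1.97 per kb, and its sham ratio was -0.28, or 0.30 per kb. In both loci the border zone had fewer tags on day 14 although the median locus had 3.99 times as many, while sham had more. Per covered kb the border zone tags were about equal on the 2 days, at 172 and 170 on chromosome 14 and 122 and 123 on chromosome 12.

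The next 3 loci had ratios between -2.20 and -2.09. They were 185803251 to 185804750 of chromosome 1, with 177 and 154 border zone tags against 51 and 133 in sham, 119617251 to 119618750 of chromosome 5, with 193 and 167 against 65 and 153, and 87783251 to 87784750 of chromosome 10, with 236 and 221 against 65 and 157. Their sham ratios were -0.43, -0.58 and -0.54. Per covered kb their border zone ratios were -1.61, -1.61 and -1.50 and their sham ratios 0.16, 0.01 and 0.05. The locus at 125977751 to 125979250 of chromosome 4 had 175 and 176 tags in the border zone, with 30 and 79 in sham. Its border zone ratio was -1.99 (-2.36 to -1.63), or -1.40 per kb, and its sham ratio was -0.42, or 0.17 per kb. This locus was the only one of the 6 still listed as border zone-higher on day 14. None of the 6 was listed on day 4, whereas 60.3% of the 478 loci and 76.3% of all loci were.

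**Figure D2:**
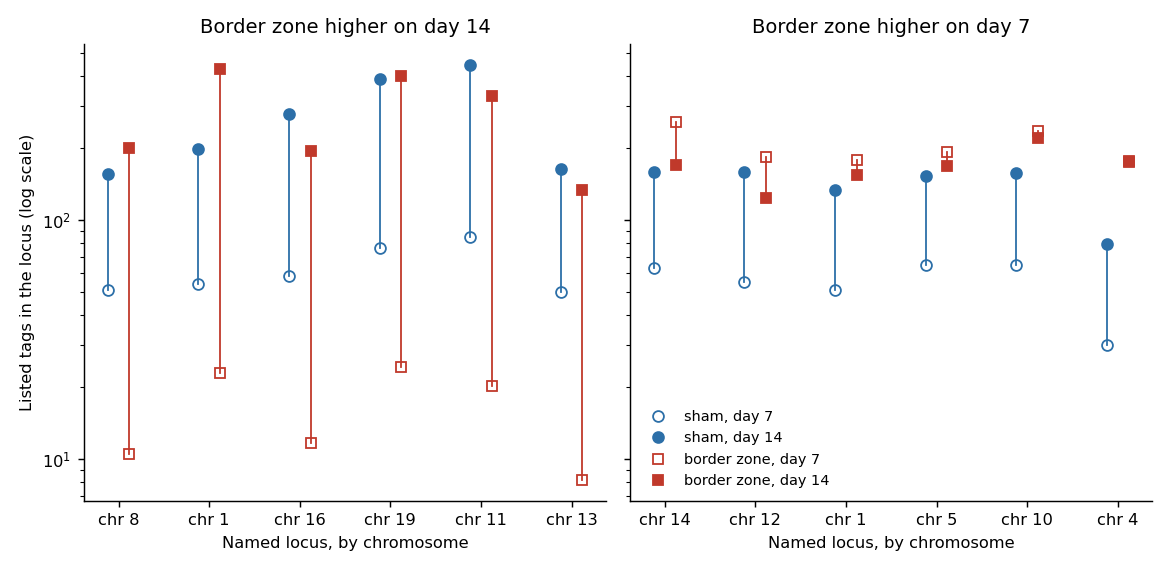
Listed tags (log scale) of the 6 named loci per direction with a steady sham, labelled by chromosome. Open symbols are day 7 and filled symbols day 14, circles are sham and squares the border zone, and each symbol is 1 library. On the left the border zone lies below sham on day 7, for example at 10.5 against 51 tags on chromosome 8, and on the right it lies above sham on day 7, for example at 257 against 63 tags on chromosome 14.

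Other loci differed between the days in both conditions. The border zone and sham were both at least 2-fold higher on day 14 in 533 of the 26554 loci, with median ratios of 1.46 and 1.22. Both were at least 2-fold higher on day 7 in 976 of them, with -1.52 and -1.38. Covered length moved with them. It was longer on day 14 in 92.1% of the first set and shorter in 78.7% of the other, and per covered kb the medians were 0.80 and 0.59, and -1.04 and -0.88. The strongest example for day 14, at 21478751 to 21484750 of chromosome 14, had 29.6 border zone and 53 sham tags on day 7 but 3110 and 3126 on day 14, where 5.5 kb were covered in place of 1.0 kb. Its ratios were 4.72 (4.12 to 5.40) and 4.07, and 2.27 and 1.61 per kb.

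At 95464251 to 95473750 of chromosome 3 the tags were 91.6 and 4167 in the border zone and 46 and 4011 in sham, with covered lengths of 1.0 and 9.0 kb. The border zone ratio of 3.51 was only 0.35 per covered kb, where the sham ratio was 1.46. At 133939251 to 133943750 of chromosome 7 the border zone ratio of 3.48 was 1.48 per kb. In these loci only a small piece of the day 14 stretch was listed on day 7. For day 7 the first was 38972251 to 38977250 of chromosome 7, with 1149 border zone and 381 sham tags over 5.0 kb on day 7 and 182 and 54 over 1.0 kb on day 14. Its ratios were -4.65 in the border zone and -4.63 in sham, and -2.33 and -2.31 per kb. The others were 85538751 to 85541750 of chromosome 15, at -3.93 and -4.83, and 19992751 to 19998250 of chromosome 8, at -1.53 and -1.22 per kb.

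The loci with the most border zone tags among those past 2-fold differed the same way in both conditions. At 98503251 to 98504750 of chromosome 2 the border zone had 599 tags on day 7 and 9412 on day 14 and sham had 360 and 3749, with ratios of 1.98 (1.84 to 2.12) and 1.56. The locus from 57390751 to 57392250 of chromosome 16 had 321 and 6689 tags in the border zone and 213 and 4216 in sham, with ratios of 2.39 (2.20 to 2.58) and 2.49. In both, 1.0 kb was covered on day 7 and 1.5 kb on day 14. A pair of neighbours on chromosome 6 had the most tags among loci higher on day 7, each made of several listed regions. The one at 47600751 to 47613250 had 5598 and 8855 border zone tags against 4741 and 6258 in sham over the same 12.5 kb, ratios of -1.33 (-1.39 to -1.28) and -1.42. The one at 47617751 to 47627250 had 5483 and 8955 against 5011 and 6900 over the same 9.5 kb, ratios of -1.29 and -1.35. For these 2 the covered length was equal, and the day difference was as large in sham as in the border zone. Whether the loci with the most tags, or the windows and unplaced contigs below, lie in repeated sequence was not checked.

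Neighbouring loci had similar ratios. Among 5712 pairs of adjacent loci less than 5 kb apart, Spearman's rho of the border zone ratios was 0.29, and it was 0.19 at 5 to 20 kb, 0.14 at 20 to 50 kb, 0.13 at 50 to 200 kb and 0.09 at 200 to 1000 kb. In sham the values were 0.21, 0.13, 0.11, 0.09 and 0.05. The difference between the border zone and sham ratios, in which covered length cancels, gave 0.24 for the closest pairs and 0.04 for the farthest. These are descriptions over pairs that share their libraries.

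Of 1109 windows of 1 Mb with at least 10 loci, 5 had a median border zone ratio of -1 or lower and 0 had one of 1 or higher. The window from 19000001 to 20000000 of chromosome 8 had the lowest median, -1.94, and all 21 of its loci were at least 2-fold higher on day 7. Its summed border zone tags were 16774 on day 7 over 87.0 kb and 16483 on day 14 over 54.5 kb, and sham had 8397 and 10534. The windows from 14000001 and from 15000001 of chromosome 5 followed at -1.78 and -1.52, with 10 of 12 and 17 of 24 loci past 2-fold. Sham medians in the 3 windows were -1.53, -1.95 and -1.70, and the border zone medians per covered kb were -1.45, -1.11 and -0.93. These windows were thus low on day 14 in both conditions.

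On the day 14 side the differences of windows were smaller. The window from 68000001 to 69000000 of chromosome 9 had a median ratio of 0.91 over 10 loci, all of them above 0 and 5 of them past 2-fold. Its summed tags were 847 and then 6192 in the border zone, and 1330 and 6088 in sham, with 14.5 and 15.5 kb covered. Its median was 0.92 per covered kb against 0.37 in sham. The window from 118000001 to 119000000 of chromosome 6 had a median of 0.81 over 29 loci, 10 of them past 2-fold, with 0.65 in sham and only 0.44 per covered kb. The window from 7000001 to 8000000 of chromosome 17 had a median of 0.80 over 16 loci with 0.43 in sham. Of these 3, the chromosome 9 window had the widest gap between the border zone and sham. Border zone medians reached 0.5 in 31 windows and -0.5 in 45, and sham medians did so in 1 and 11. Per covered kb the border zone numbers were 14 and 27.

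The loci were then grouped by the authors' lists, which set border zone against sham on each day. These lists were made from the same 4 libraries, so the medians describe the lists and test nothing. The 4067 loci listed as sham-higher on day 7 and as non-differential on day 14 had a median border zone ratio of 0.66 with a sham ratio of 0.06, and 1000 of them (24.6%, against 6.82% of all loci) were at least 2-fold higher on day 14. Only 14 (0.344%) were so on day 7. The 871 loci that were sham-higher on both days had a median of 0.26 with 0.18 in sham. For the 1151 loci that were border zone-higher on day 7 and non-differential on day 14 the medians were -0.61 in the border zone and 0.25 in sham, and 252 of them (21.9%, against 7.64% of all loci) were at least 2-fold higher on day 7.

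The 1707 loci that were border zone-higher on both days also had relatively fewer border zone tags on day 14. Their median was -0.53 with -0.21 in sham, 349 of them (20.4%) were past 2-fold for day 7 and 17 (0.996%) for day 14. The 524 loci that were non-differential on day 7 and border zone-higher on day 14 had a border zone median of -0.02, and it was their sham ratio that was low, at -0.40. The 292 loci that turned from non-differential to sham-higher had -0.33 in the border zone and 0.31 in sham. The 14045 loci that were non-differential on both days had medians of -0.07 and 0.00. Over all loci the median size of the border zone to sham log2 ratio was 0.59 on day 7 and 0.36 on day 14, but day 7 had the fewer tags, and counting error adds more to it.

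**Figure D3:**
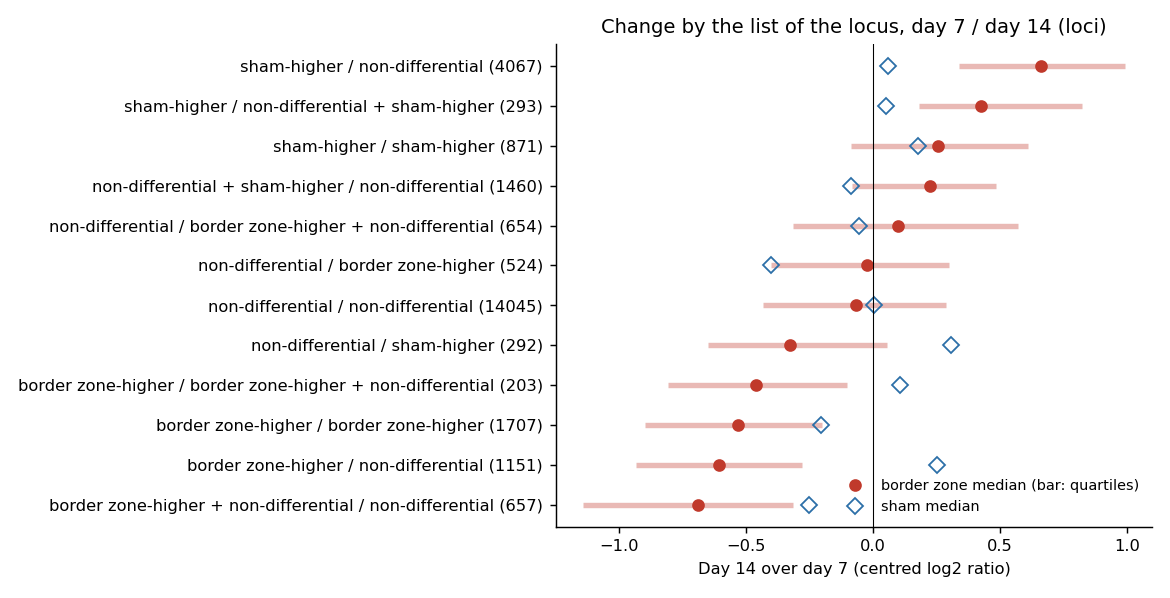
Median centred log2 ratio of day 14 to day 7 for loci grouped by their lists on day 7 and day 14, with the number of loci in brackets. Circles are the border zone with bars from the first to the last quartile limit over loci, and diamonds are sham. Loci that were sham-higher on day 7 alone lie at 0.66 and those that were border zone-higher on day 7 alone at -0.61, with sham at 0.06 and 0.25.

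Ratios were spread evenly over the autosomes. The border zone medians of the 19 autosomes lay between -0.09 on chromosome 7 and 0.08 on chromosome 19, and the sham medians between -0.04 and 0.07. The X chromosome lay outside this range in both conditions, with -0.27 in the border zone and -0.19 in sham over 253 loci. On it, 42 border zone loci (16.6%, against 7.64% of all) were at least 2-fold higher on day 7 and 10 (3.95%) on day 14. Its border zone loci summed to 35638 tags on day 7 and 97268 on day 14, and its sham loci to 35425 and 99931. Per covered kb the X medians were -0.22 and -0.12. The 47 loci on contigs without a place in the assembly had a median of -0.76 in the border zone and -0.37 in sham, and 19 of them were 2-fold higher on day 7 against 2 on day 14. Over all loci the shares were 7.64% and 6.82%.

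**Figure D4:**
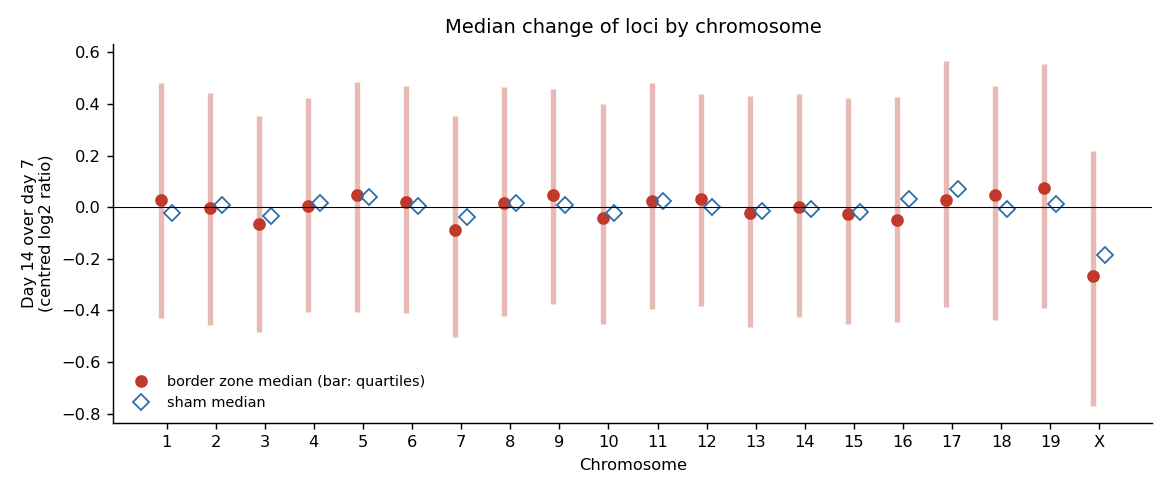
Median centred log2 ratio of day 14 to day 7 per chromosome, with circles for the border zone, bars for its quartiles over loci and diamonds for sham. The autosome medians of the border zone lie between -0.09 and 0.08, and the X chromosome lies at -0.27 with sham at -0.19.

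Wide loci had lower medians on day 14 in both conditions. The 149 loci over 5 kb had a median of -0.25 in the border zone and -0.51 in sham, and the 2210 loci over 2 to 5 kb had -0.18 and -0.26, whereas the 13798 loci of up to 1 kb had 0.02 and 0.05. Per covered kb the medians of the widest loci were -0.08 in the border zone and -0.32 in sham, and those of the loci over 2 to 5 kb were -0.13 and -0.20. The share past 2-fold for day 7 was 21.5% in the widest class and 3.38% in the narrowest. Loci were also ranked by border zone tags in 5 classes, with the day 14 tags divided by the median ratio so that both days counted alike. Of the 5315 loci with the fewest tags, 8.67% were past 2-fold for day 14 and 1.34% for day 7, and of the 5311 with the most, 1.85% and 13.3% were. To be listed on day 14, the larger of a region's border zone and sham values had to reach 150 tags, and on day 7 it had to reach 50.

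Day 4 played no part in choosing or measuring these loci, and its libraries are independent of the comparison. They also differ from the later ones in several ways. The labels give the day 4 mice, sham-operated or infarcted 4 days before, as FVB/N carrying Cdh5-Cre and Sun1-sfGFP, and mention no tamoxifen for them. Their nuclei were enriched for cardiomyocytes by a PCM1 pulldown, and their reads were aligned with another program. A difference of day 4 from the later days can thus not be told apart from these differences. Of all 26554 loci, 76.3% were listed on day 4, and 6.83% of these (6.49 to 7.19%) were listed as border zone-higher there. Loci whose border zone tags were at least 2-fold higher on day 7 were border zone-higher on day 4 in 140 of 1322 cases, or 10.6% (8.98 to 12.4%). Loci higher on day 14 were so in 62 of 1535 cases, or 4.04% (3.11 to 5.15%). With sham within 1.5-fold the shares were 13.5% (9.81 to 18.0%) of 288 loci and 2.10% (1.12 to 3.56%) of 620. Per covered kb they were 10.4% and 2.40%. The intervals treat loci as independent, which neighbours are not.

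The sham-higher list of day 4 held 4.96% of all loci listed on day 4, 4.61% of those higher on day 7 and 5.47% of those higher on day 14. With sham within 1.5-fold its shares were 4.86% and 6.13%, and per covered kb 4.36% and 5.64%. The loci also differed in whether day 4 listed them at all. Of loci higher on day 7, 65.2% were listed on day 4, and of loci higher on day 14, 84.8% were. On day 4 the border zone over sham ratio (log2, median) was -0.14 in the first group, -0.23 in the other and -0.18 over all loci. These medians mix unscaled border zone values of the non-differential list with scaled values of the other lists.

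**Figure D5:**
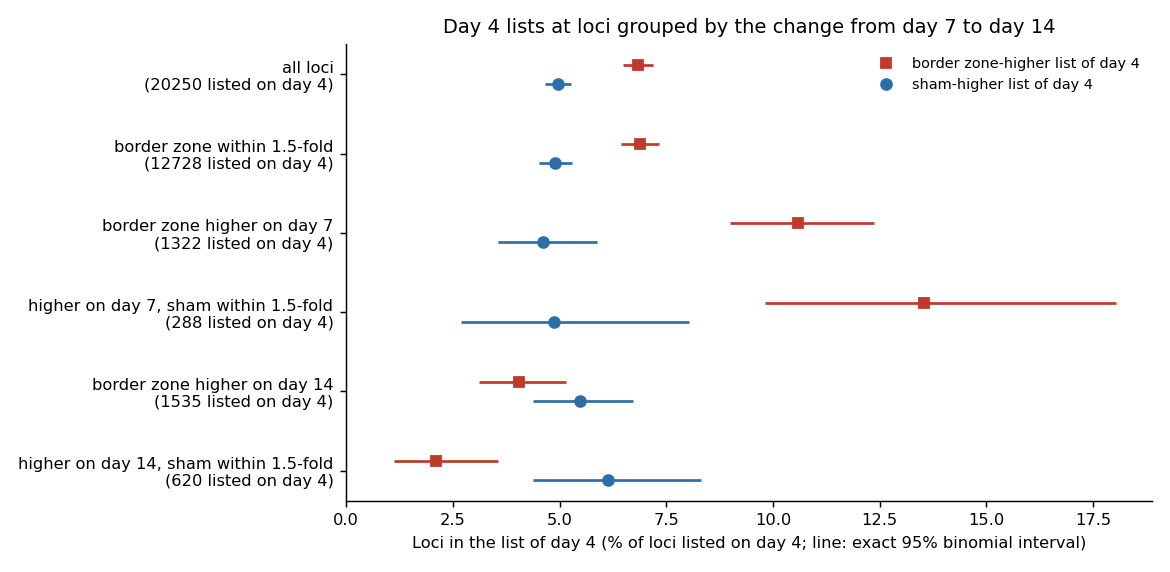
Share of loci in the border zone-higher (squares) and sham-higher (circles) lists of day 4, as a percentage of the loci listed on day 4, for loci grouped by their border zone change from day 7 to day 14. Lines are exact 95% binomial intervals over loci. The border zone-higher share is 10.6% for loci higher on day 7 and 4.04% for loci higher on day 14, beside 6.83% of all loci.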

How the data were processed

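ATAC-seq regions were taken from the 3 lists deposited for each day, with columns matched to samples by name, and the number of columns left unmatched was 0. The submitters' processing notes name the build mm9, bedtools, and BWA for days 7 and 14 or Bowtie2 for day 4. How regions were called and how duplicates and the transposase offset were handled was not stated there. Per the file headers, sham values are deposited tag counts. For days 7 and 14, border zone values are a deposited signal, tags that the authors multiplied by a factor, read from the values. For day 4 they are counts in the non-differential list and scaled tags in the other lists. Of the regions, 33110 of 34952 on day 7 and 38162 of 40980 on day 14 were whole tags times the main factor within 0.001% of the value. The others carried a factor of 1.17 or 1.18 or a sum of both kinds, and whole tags were found for all of them. A sum, in 506 regions on day 7 and 983 on day 14, can be split in more than 1 way, and the first split that fitted was taken.

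Regions were joined at an overlap of 1 bp with Python 3.11.15, pandas 2.3.3, numpy 2.4.6 and scipy 1.17.1, without pseudocount or filter beyond the authors' own minimum of 50 tags on day 7 and 150 on day 14 for the larger value. Intervals of ratios come from whole tags. The steps were tested on simulated data, which held no sums of both factors. With 1 library per group there is no test. The members and lists were chosen with earlier results of these data known. Loci were named by rule, on placed chromosomes and with at least 100 tags on the higher day: per direction, 6 with the largest border zone ratio and sham within 1.5-fold, 3 past 2-fold in both conditions, 2 with the most tags, 3 windows of 1 Mb and the loci beside the limit. The 30 RNA-seq samples were not analysed here. Depth is known for listed regions only.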

Additional observations from a re-analysis of the deposited data

Results flagged for a closer look

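In 4 loci the border zone was at least 2-fold higher on day 14 while sham was at least 2-fold higher on day 7. The conditions thus moved in opposite directions there, in 0.221% of the 1811 border zone loci higher on day 14. With 1 library each, this difference was not tested. At 10433251 to 10434250 of chromosome 17 the border zone went from 14.0 to 155 tags and sham from 53 to 86, with ratios of 1.47 (0.61 to 2.47) and -1.12. At 118251751 to 118252750 of chromosome 5 the border zone had 10.5 and 152 tags and sham had 60 and 93, with ratios of 1.86 (0.89 to 3.03) and -1.18. The third, at 122617251 to 122618750 of chromosome 5, had ratios of 1.11 (0.35 to 1.96) and -1.02, and in unscaled tags its border zone ratio was 0.90, which is under 2-fold and leaves 3 such loci of these 4, and the last, at 110861751 to 110862750 of chromosome 9, had 1.04 (0.24 to 1.96) and -1.55. All 4 were listed as sham-higher on day 7, and 3 of them as border zone-higher on day 14. Over all 26554 loci these numbers were 5258 and 2373. Each of the 4 had 18.9 or fewer border zone tags on day 7, so sham had to reach the minimum of 50 tags there. Their day 7 listing thus follows in part from the choice. No locus was past 2-fold in the opposite sense (0 of 2029).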

How the results depend on the processing

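Counts of loci past 2-fold for day 14 and day 7 were 1811 and 2029. They became 2756 (day 14) with summed tags as the centre, 275 and 1029 with at least 100 tags on both days, 1077 and 1172 per covered kb, and 764 and 693 in loci of equal covered length. They were 5051 and 4947 at 1.5-fold and 97 and 182 at 4-fold. With sham within 1.5-fold the counts of 710 and 478 became 1120 and 290 with summed tags as the centre, 134 and 192 with at least 100 tags, and 312 for day 7 at equal covered length. Fewer loci entered with a tag minimum (9633, of which 2.85% and 10.7% were past 2-fold) or equal length (20717). The minimum of 100 tags was the same on both days, although the median locus had 3.99 times as many tags on day 14. Loci higher on day 14 therefore met it less easily than loci higher on day 7, and the balance of the directions under it follows in part from the filter. Per covered kb and equal length were chosen after the data were seen.

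Medians by list kept their direction. With summed tags as the centre they were -0.37 (border zone-higher on both days), -0.44 (border zone-higher on day 7 alone), 0.82 (sham-higher on day 7 alone) and 0.42 (sham-higher on both days), and with non-differential loci as the centre -0.46, -0.54, 0.73 and 0.32. Loci with the main factor on both days gave -0.56 for the first and 0.64 for the third, and at least 100 tags gave 0.69 for the third and 0.21 for the last, over 30 loci. Chromosome 7 moved to -0.24 by summed tags and -0.16 in non-differential loci, and chromosome X to -0.55 and -0.43. Chromosome 19 turned to -0.052 and -0.017. These chromosome values kept the median over all loci as their centre. On that scale the summed ratio was below 0 on every chromosome, and the 14045 loci non-differential on both days lay at -0.07. The sign for chromosome 19 is thus set by the centre, and its summed value stayed the highest of the autosomes. The share of loci higher on day 14 that were border zone-higher on day 4 was 2.40% per covered kb. Of 136 values for the 34 named loci under 4 settings, 0 changed direction and 20 left the counting interval, 15 of them per covered kb.

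No paired analysis was possible because each group had 1 library without a replicate number. The tags of listed regions limit the precision, most of all for loci with few border zone tags on day 7.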

Other observations

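Loci listed on 1 day have no ratio. There were 5324 on day 7 alone and 12348 on day 14 alone. If a locus was missing because its larger value lay under the listing minimum of 150 tags on day 14, the border zone was at least 2-fold lower on day 14 in 1101 of the 5324 (20.7%). By list these were 566 of 2042 border zone-higher loci (27.7%), 483 of 2586 non-differential ones (18.7%) and 52 of 696 sham-higher ones (7.47%). With the minimum of 50 tags on day 7, the border zone was at least 2-fold higher on day 14 in 335 of the 12348 (2.71%). A day 7 locus needed 75.2 border zone tags to give such a bound and a day 14 locus 399, so these shares also depend on the 2 minimums.

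Among loci that were the same listed region on both days, the largest difference in each direction lay in 2 adjoining regions of chromosome 14, which were singled out after their values were seen. At 119405751 to 119406750 the border zone had 575 tags on day 7 and 204 on day 14 and sham had 565 and 114, with ratios of -3.49 (-3.77 to -3.22) and -4.13. In the adjoining region from 119406751 to 119407750 the border zone had 29.6 and 2077 tags and sham had 77 and 2293, with ratios of 4.14 (3.53 to 4.81) and 3.08. The tags thus lay on opposite sides of a region boundary on the 2 days, in both conditions alike. The next were 46004251 to 46005250 of chromosome 9, at 2.46 with 1.68 in sham, and 20006251 to 20007250 of chromosome 8, at -2.63 with -2.54 in sham.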
